A study of Mus musculus with 52 samples.

Results

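Ifi44, Oasl2, Ifit1, Ifit3, Isg15, Irf7, Usp18, Rsad2, Bst2 and Ifitm3 are genes that cells switch on after type I interferon binds its receptor. These 10 genes were taken by symbol from the 55401 mouse genes counted by RNA-seq in 52 libraries of spinal cord, cerebral cortex and skeletal muscle. All 10 had enough counts to be tested in each tissue. Treated transgenic mice carried human PFN1 with the C71G change, a mutant profilin-1 linked to familial amyotrophic lateral sclerosis, and received an adeno-associated virus (AAV) encoding an artificial microRNA (amiR) directed at Atxn2. Vehicle-treated transgenic mice carried the same PFN1 transgene and received vehicle. Wild-type mice were of the FVB/NJ strain and also received vehicle. Each arm had 6 libraries per tissue, except 5 for vehicle-treated transgenic muscle and 5 for wild-type cortex. Females and males were in every group, as 3 and 3 in groups of 6, and as 2 and 3 in groups of 5.

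All wild-type mice were 36 weeks old, as were 4 libraries of every transgenic group. The remaining transgenic libraries came from mice of 38 or 39 weeks, and in spinal cord and muscle these were all female. No arm received a control vector, so the AAV and its amiR cannot be told apart, and no wild-type mouse was treated. The labels do not name the promoter of the transgene. The labels do not say that each library of a group came from a separate mouse, so the p-values measure the spread between these libraries.

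Type I interferons bind the receptor pair IFNAR1 and IFNAR2, whose kinases JAK1 and TYK2 phosphorylate transcription factors of the STAT family, STAT2 among them. With IRF9 these form a complex that binds the interferon-stimulated response element (ISRE) in the promoters of its target genes. Interferon-gamma acts through its own receptor and the gamma-activated sequence (GAS), and many interferon-stimulated genes answer to both. In the nervous system, microglia, astrocytes and neurons can all express such genes.

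Spinal cord libraries held 73154558 to 109285103 counts, cortex libraries 67496573 to 90357491 counts and muscle libraries 66481829 to 111866153 counts. Neuron, astrocyte and oligodendrocyte markers were abundant in the libraries labelled spinal cord and cortex, and muscle fibre markers in those labelled muscle. Treated spinal cord replicate 2 also held muscle fibre markers at a summed 650 CPM (counts scaled to a common library size with TMM factors), against at most 89.3 CPM in the other spinal cord libraries. In 4 spinal cord libraries (treated replicates 1 and 2, vehicle-treated replicates 5 and 6) the treatment in the sample title is the opposite of that in the library name. The vector element WPRE, which marks the AAV transcript, matched the title in each of them: 3189 and 3338 counts in the libraries titled treated and 0 in those titled vehicle. The titles were used, and counts without these libraries are given below. The vector transcript was seen at 36.4 to 77.3 unscaled CPM in treated spinal cord, at 27.6 to 64.8 in treated cortex and at 1 to 5 counts per library in treated muscle. Vehicle-treated transgenic cortex replicate 6 had 1 WPRE count too, so the muscle counts are near a level seen without vector. Atxn2, the target of the amiR, had 70.9 to 73.5 CPM in treated, 103 to 111 CPM in vehicle-treated transgenic and 118 to 133 CPM in wild-type spinal cord, with a log2 fold change of −0.55 for treatment (SE 0.03, adjusted p = 8.14e-08 by edgeR). For treatment it had −0.27 in cortex (adjusted p = 0.187) and 0.04 in muscle (adjusted p = 0.757), both by edgeR.

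The promoter windows of 9 of the 10 genes could be read from RefSeq (GRCm38.p6; 250 bases before to 50 bases after the start site) and differ in whether they hold the ISRE core. Ifi44 and Oasl2 are printed because they had the smallest adjusted p-values for treatment in spinal cord, and 4 genes with matches follow for comparison. Capitals mark the ISRE core, searched on both strands as GAAA, any 2 bases and GAAA again, which reads TTTC, any 2 bases and TTTC on the reverse strand.
Ifi44 promoter window, chr3:151749861-151750160, minus strand: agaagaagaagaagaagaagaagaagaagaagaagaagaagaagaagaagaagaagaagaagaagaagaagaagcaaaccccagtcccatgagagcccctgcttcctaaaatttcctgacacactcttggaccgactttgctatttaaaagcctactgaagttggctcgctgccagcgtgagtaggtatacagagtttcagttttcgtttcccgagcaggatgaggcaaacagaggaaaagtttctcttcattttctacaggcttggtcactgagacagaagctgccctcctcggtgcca
Oasl2 promoter window, chr5:114896684-114896983, plus strand: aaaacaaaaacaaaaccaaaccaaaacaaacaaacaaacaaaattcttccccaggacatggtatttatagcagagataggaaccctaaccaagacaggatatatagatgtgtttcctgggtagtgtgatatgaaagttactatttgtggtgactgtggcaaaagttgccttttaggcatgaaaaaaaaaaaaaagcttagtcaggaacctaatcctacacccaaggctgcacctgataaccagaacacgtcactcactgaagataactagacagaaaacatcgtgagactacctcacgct
Ifit1 promoter window, chr19:34640639-34640938, plus strand: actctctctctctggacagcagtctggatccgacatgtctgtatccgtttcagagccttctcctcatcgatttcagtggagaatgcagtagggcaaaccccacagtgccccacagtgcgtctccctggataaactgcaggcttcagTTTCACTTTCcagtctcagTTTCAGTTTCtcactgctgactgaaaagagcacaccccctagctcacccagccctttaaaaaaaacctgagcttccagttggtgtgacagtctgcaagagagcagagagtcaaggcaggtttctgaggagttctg
Isg15 promoter window, chr4:156200769-156201068, minus strand: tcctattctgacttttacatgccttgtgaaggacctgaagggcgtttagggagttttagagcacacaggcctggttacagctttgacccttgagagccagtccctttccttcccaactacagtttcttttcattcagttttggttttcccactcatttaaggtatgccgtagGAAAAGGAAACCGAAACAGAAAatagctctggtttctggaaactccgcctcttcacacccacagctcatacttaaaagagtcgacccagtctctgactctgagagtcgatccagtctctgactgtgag
Bst2 promoter window, chr8:71537423-71537722, minus strand: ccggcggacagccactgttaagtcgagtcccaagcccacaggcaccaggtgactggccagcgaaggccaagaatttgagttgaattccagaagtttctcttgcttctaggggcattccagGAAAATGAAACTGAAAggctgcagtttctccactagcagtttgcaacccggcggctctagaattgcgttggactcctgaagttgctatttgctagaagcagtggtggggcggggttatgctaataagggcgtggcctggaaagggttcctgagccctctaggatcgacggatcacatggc
Ifitm3 promoter window, chr7:141010695-141010994, minus strand: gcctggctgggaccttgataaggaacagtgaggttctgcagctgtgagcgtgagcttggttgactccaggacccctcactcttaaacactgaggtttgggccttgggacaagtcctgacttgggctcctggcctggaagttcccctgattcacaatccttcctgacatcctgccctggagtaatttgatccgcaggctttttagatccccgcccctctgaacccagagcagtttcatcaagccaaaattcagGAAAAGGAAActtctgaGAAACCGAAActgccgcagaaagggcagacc

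The ISRE core occurred in 6 of the 9 windows, against 3.44% of 32851 RefSeq windows of the same length. Ifit1 held 2 matches, Ifit3 2, Rsad2 1, Isg15 3 of which neighbours overlap, Bst2 2 that overlap each other and Ifitm3 2, both downstream of the start site. No match was found in the windows of Ifi44, Oasl2 and Irf7, which says only that these letters are absent there. The GAS core TTCNNNGAA, searched on both strands, occurred in 2 of the 9 windows, those of Bst2 and Ifitm3, against 8.3% of all windows. In Bst2 it overlaps the first ISRE match, and in Ifitm3 it starts after the first ISRE match and overlaps the second.

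**Figure D1:**
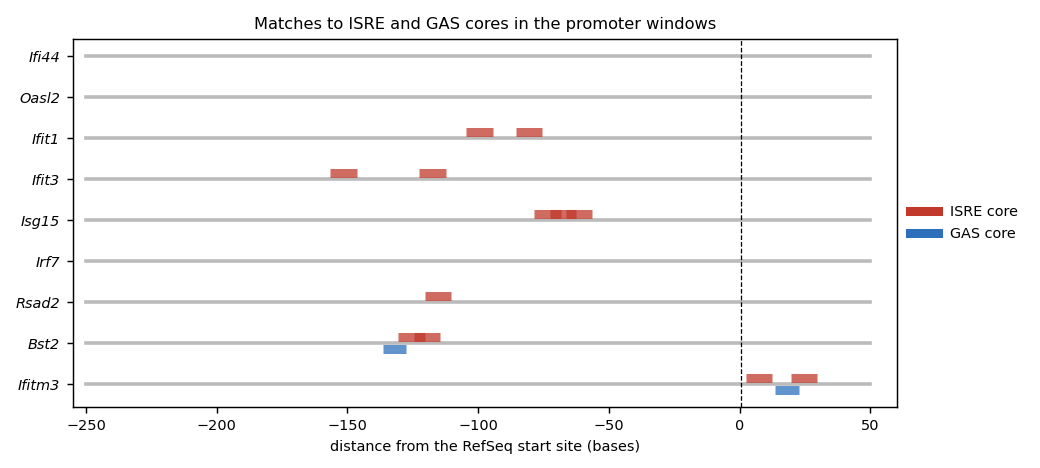
Positions of ISRE cores (red) and GAS cores (blue) in the promoter windows of 9 genes, as distance in bases from the RefSeq start site (dashed line). The grey lines of Ifi44, Oasl2 and Irf7 carry no mark, while Bst2 and Ifitm3 carry marks of both kinds.

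Per kilobase of exon, Ifitm3 had the highest level of the 10 genes in wild-type mice of each tissue, without overlap with the other 9. Ifitm3, a membrane protein that blocks fusion of virus in endosomes, had 11.1 ± 1.81 CPM per kilobase in wild-type spinal cord, 7.81 ± 1.78 in cortex and 52.1 ± 16.4 in muscle (SD, n = 6, 5 and 6). Ifit3 came next in both nervous tissues, with 1.71 ± 0.436 CPM per kilobase in spinal cord and 1.56 ± 0.499 in cortex. Bst2 followed with 1.19 ± 0.0953 CPM per kilobase in spinal cord and 1.09 ± 0.444 in cortex, and its range overlapped that of Ifit3 in both tissues. In muscle Bst2 was next after Ifitm3, at 4.88 ± 2.34 CPM per kilobase. In spinal cord Ifit1, Oasl2 and Isg15 came after these, at 0.69, 0.564 and 0.537 CPM per kilobase with overlapping ranges. Ifi44 was lowest per kilobase in all 3 tissues, again without overlap, at 0.0597 ± 0.0267 CPM per kilobase in cortex, 0.0754 ± 0.0264 in spinal cord and 0.094 ± 0.0706 in muscle. This rank depends on the annotated exon length, 6129 bases for Ifi44 and 756 for Isg15. In CPM not divided by length these genes overlapped in wild-type spinal cord, at 0.377 to 0.846 for Ifi44 and 0.428 to 0.659 for Isg15. The exon length of Irf7 includes its introns, since the annotated exons together cover the whole gene, so its level per kilobase is an underestimate.

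In spinal cord, 5 of the 10 genes rose in treated compared with vehicle-treated transgenic mice (Ifi44, Oasl2, Usp18, Irf7 and Ifit1), and none fell. Of all 20307 genes tested there, 2.92% were called higher and 2.19% lower at an adjusted p below 0.05 (edgeR quasi-likelihood test, Benjamini-Hochberg over all genes tested, with sex in the model). The median log2 fold change was 0.48 over the 10 genes and 0 over all genes tested. Because the 10 genes were chosen with earlier results of these data known, their share beside that of all genes is no test. Among 51 other interferon-stimulated genes, 3.92% were called higher in the same comparison. Tissue was sequenced in bulk, so more cells of a type and more RNA per cell cannot be told apart.

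Ifi44 (chr3:151730922-151749960, minus strand, GRCm38), an interferon-induced cytoplasmic protein, showed the largest difference. It had 1.46 CPM in the lowest, 1.75 in the median and 2.89 in the highest treated library, against 0.594, 0.868 and 0.993 CPM in vehicle-treated transgenic libraries. Every treated library lay above every vehicle-treated one. The log2 fold change was 1.30 (SE 0.24), a 2.46-fold difference, with adjusted p = 0.00822 by edgeR. Treated replicates 4 and 5, both males, were highest, at 2.8 and 2.89 CPM.

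Oasl2 (chr5:114896936-114912234, plus strand), a relative of the oligoadenylate synthetases that sense double-stranded RNA, had 7.03, 9.18 and 13.2 CPM as lowest, median and highest value in treated spinal cord, against 5.28, 5.83 and 6.71 CPM in vehicle-treated transgenic cord. These ranges did not overlap either, and the same replicates 4 and 5 were highest. Its log2 fold change was 0.73 (SE 0.14, adjusted p = 0.0113 by edgeR).

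Among the regulators of the pathway, Usp18 and Irf7 rose. Usp18 (chr6:121245906-121270917, plus strand), the protease that takes ISG15 off proteins and restrains signalling at IFNAR2, had 0.999, 1.48 and 1.96 CPM in treated libraries, against 0.659, 0.817 and 0.998 CPM in vehicle-treated transgenic libraries, as lowest, median and highest. The groups did not overlap, though the lowest treated and highest vehicle-treated library were 0.999 and 0.998 CPM, and the log2 fold change was 0.82 (SE 0.18, adjusted p = 0.0207 by edgeR). Irf7 (chr7:141262706-141266481, minus strand), the transcription factor that amplifies interferon production, had 2.83, 3.72 and 4.88 CPM in treated cord against 2.21, 2.61 and 2.9 CPM in vehicle-treated transgenic cord. Only treated replicate 3, the lowest, fell inside the vehicle range, and the log2 fold change was 0.54 (SE 0.12, adjusted p = 0.0209 by edgeR). Irf7 shares 45 exon bases with Phrf1 and Usp18 shares 124 with the noncoding Gm44148, each on the opposite strand, so reads of these stretches are uncertain.

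Ifit1 (chr19:34640871-34650009, plus strand), which binds viral RNA that lacks the host cap modification, had 3.98, 4.16 and 5.27 CPM in treated cord against 2.77, 3.23 and 3.6 CPM in vehicle-treated transgenic cord. The ranges did not overlap, and the log2 fold change was 0.48 (SE 0.11, adjusted p = 0.024 by edgeR). Ranges without overlap were thus seen for 4 genes, all higher in treated mice, against 1.16% of all genes tested.

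The other 5 genes did not pass the test between treated and vehicle-treated transgenic spinal cord. Isg15, the ubiquitin-like modifier, had a log2 fold change of 0.49 (SE 0.17, adjusted p = 0.101 by edgeR), with treated replicate 3 at 0.682 CPM, below every vehicle-treated library, and the other 5 treated libraries at 1.25 to 1.67 CPM, above all of them. Ifit3, a binding partner of Ifit1, had 0.38 (adjusted p = 0.16 by edgeR), and 31.7% of its 100-base stretches are shared with its neighbour Ifit3b, so counts of these genes are uncertain. Rsad2, or viperin, had 0.40 (adjusted p = 0.343 by edgeR). Bst2, or tetherin, which holds budding virus at the cell surface, ranged from 3.25 to 4.31 CPM in treated and from 3.1 to 4.28 CPM in vehicle-treated transgenic cord, a log2 fold change of 0.10 (SE 0.10, adjusted p = 0.595 by edgeR). Ifitm3 ranged from 13.9 to 20.2 CPM in treated and from 16.1 to 23.4 CPM in vehicle-treated transgenic cord, a log2 fold change of −0.25 (SE 0.12, adjusted p = 0.216 by edgeR). It was the one estimate of the 10 below 0, where 10286 of all 20307 genes tested had an estimate above 0.

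**Figure D2:**
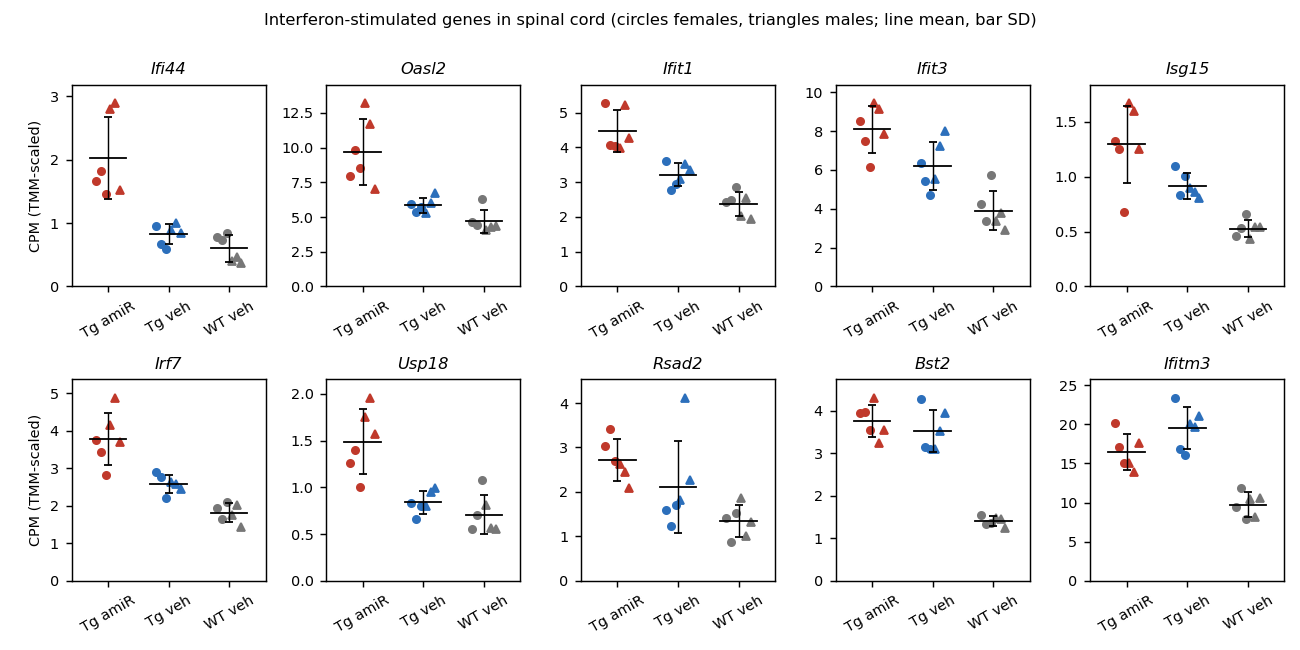
TMM-scaled CPM of the 10 genes in every spinal cord library (circles females, triangles males), with treated transgenic (Tg amiR) on the left, vehicle-treated transgenic (Tg veh) in the middle and wild type (WT veh) on the right of each panel; lines are means and bars SD. Ifi44 is highest in treated mice, with 1.46 to 2.89 CPM, whereas the transgenic arms of Bst2 and Ifitm3 overlap each other and lie above wild type.

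The calls for treatment in spinal cord changed when a few libraries were left out, and so did the 1037 calls over all genes. Without the mice older than 36 weeks 1 of the 10 genes was called, and 96 of all genes. That gene was Irf7 (log2 fold change 0.65, at the threshold with adjusted p = 0.05 by edgeR). The other 4 had log2 fold changes of 1.30 for Ifi44, 0.75 for Oasl2, 0.88 for Usp18 and 0.47 for Ifit1, with adjusted p-values of 0.0524 to 0.0786 by edgeR. Without the 4 libraries whose labels conflict 2 genes were called, Ifi44 at 1.58 and Oasl2 at 0.91, both with adjusted p = 0.0341 by edgeR, and 732 of all genes. There Usp18 had 0.98, Ifit1 0.54 and Irf7 0.52, with adjusted p-values of 0.0556 to 0.102 by edgeR. Without treated replicate 2, which held muscle markers, the same 5 genes were called, and 571 of all genes. Without treated replicate 5, 2 of the 10 and 368 of all genes were called, and without treated replicate 4, 3 of the 10 and 242 of all genes. With the 4 conflicting libraries put in the arm of their library names, 0 of all genes were called by edgeR, and Ifi44 had 1.00 (adjusted p = 0.287 by edgeR).

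Microglia markers summed to 674 to 1520 CPM in treated cord, 1240 to 1510 CPM in vehicle-treated transgenic cord and 402 to 548 CPM in wild-type cord. None of the 16 passed the test between the transgenic arms (median log2 fold change −0.34), and 13 rose in vehicle-treated transgenic over wild-type cord (median 1.5). Markers of border and tissue macrophages summed to 31.8 to 112 CPM in treated, 111 to 123 CPM in vehicle-treated transgenic and 10.9 to 17.7 CPM in wild-type cord. Of these 10, Cd68 (−1.11, SE 0.31) and Ms4a7 (−1.98, SE 0.39) fell in treated against vehicle-treated transgenic cord. The median over the 10 macrophage markers was 0.1 there, with 6 estimates above 0, against 10286 of all 20307 genes tested. In vehicle-treated transgenic over wild-type cord 3 of the 10 rose, with a median of 0.64. T cell markers summed to 4.34 to 5.64 CPM in treated, 3.01 to 4.61 CPM in vehicle-treated transgenic and 1.5 to 2.55 CPM in wild-type cord. Of 13 tested, Cd8a, a chain of the co-receptor of cytotoxic T cells, rose with treatment (2.19, SE 0.37, adjusted p = 0.00616 by edgeR), and 12 rose in vehicle-treated transgenic over wild-type cord. Neuron markers summed to 5690 to 8570 CPM in treated, 5060 to 6270 CPM in vehicle-treated transgenic and 8220 to 9140 CPM in wild-type cord. Of these 10, 4 rose with treatment (median 0.12), and 7 fell in vehicle-treated transgenic against wild-type cord (median −0.41). Astrocyte markers summed to 6470 to 13000 CPM in treated, 9110 to 10400 CPM in vehicle-treated transgenic and 6080 to 7540 CPM in wild-type cord. None of these 10 was called for treatment (median −0.06), while 4 rose and 3 fell for the transgene (median 0.17). Over all genes tested, 2.92% were called higher and 2.19% lower for treatment, and 18.8% higher and 17.9% lower for the transgene. Cd68, Ms4a7 and Cd8a were chosen after their values were seen, and no marker of these lists was at 0 in a whole arm. The part of these cells in the values of the 10 genes was not tested.

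In vehicle-treated transgenic compared with wild-type spinal cord, 7 of the 10 genes rose, and 18.8% of all genes tested were called higher in this comparison. The vehicle-treated transgenic libraries serve in both comparisons, so the treatment and transgene values of a gene are not independent of each other. The largest 2 differences were those of the membrane proteins Bst2 and Ifitm3, neither of which was called for treatment. Bst2 (chr8:71534255-71537456, minus strand) had 3.1, 3.35 and 4.28 CPM as lowest, median and highest value in vehicle-treated transgenic cord, against 1.24, 1.4 and 1.56 CPM in wild-type cord. The ranges were far apart, and the log2 fold change was 1.33 (SE 0.10, adjusted p = 1.46e-07 by edgeR). Ifitm3 (chr7:141009586-141010770, minus strand) had 16.1, 19.9 and 23.4 CPM in vehicle-treated transgenic cord against 7.95, 9.98 and 11.9 CPM in wild-type cord, again without overlap. Its log2 fold change was 1.00 (SE 0.12, adjusted p = 5.59e-06 by edgeR).

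Isg15 (chr4:156199424-156200818, minus strand) had 0.803, 0.877 and 1.1 CPM in vehicle-treated transgenic cord against 0.428, 0.538 and 0.659 CPM in wild-type cord. The ranges did not overlap, with a log2 fold change of 0.79 (SE 0.18, adjusted p = 0.00203 by edgeR). Ifit3 (chr19:34583531-34588731, plus strand) had 4.71, 5.94 and 8.01 CPM in vehicle-treated transgenic cord against 2.89, 3.57 and 5.73 CPM in wild-type cord, with overlap at wild-type replicate 3 and a log2 fold change of 0.66 (SE 0.16, adjusted p = 0.00377 by edgeR). Irf7 rose by 0.51 (SE 0.12) without overlap, and Ifit1 by 0.43 (SE 0.11) with overlap. Rsad2 (chr12:26442746-26456452, minus strand), which makes an antiviral nucleotide, was just past the threshold, at 0.64 (SE 0.25, adjusted p = 0.0495 by edgeR). Vehicle-treated transgenic replicate 5 had 4.12 CPM against 1.24 to 2.26 CPM in the other 5 libraries of its group. Without it the log2 fold change of Rsad2 was 0.37 (adjusted p = 0.16 by edgeR), and the call held in 6 of 18 fits that left out a single library. Ifi44 at 0.45 (adjusted p = 0.167), Oasl2 at 0.32 (adjusted p = 0.0948) and Usp18 at 0.22 (adjusted p = 0.371), all by edgeR, did not pass. In all, 4 genes had ranges without overlap, against 11.8% of all genes tested.

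Set against wild type, treated spinal cord had all 10 genes higher, where 14.6% of all genes tested were called higher. The log2 fold changes ran from 0.75 for Ifitm3 to 1.75 for Ifi44 (SE 0.12 and 0.25), with 1.43 for Bst2, 1.29 for Isg15 and 0.91 to 1.05 for the other 6 genes. Adjusted p-values by edgeR lay between 1.38e-07 for Bst2 and 0.00449 for Rsad2. Except for Usp18, every treated library lay above every wild-type library, against 7.12% of all genes tested. All 10 genes were also called without the 4 libraries with conflicting labels, without mice older than 36 weeks and with any single library left out.

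**Figure D3:**
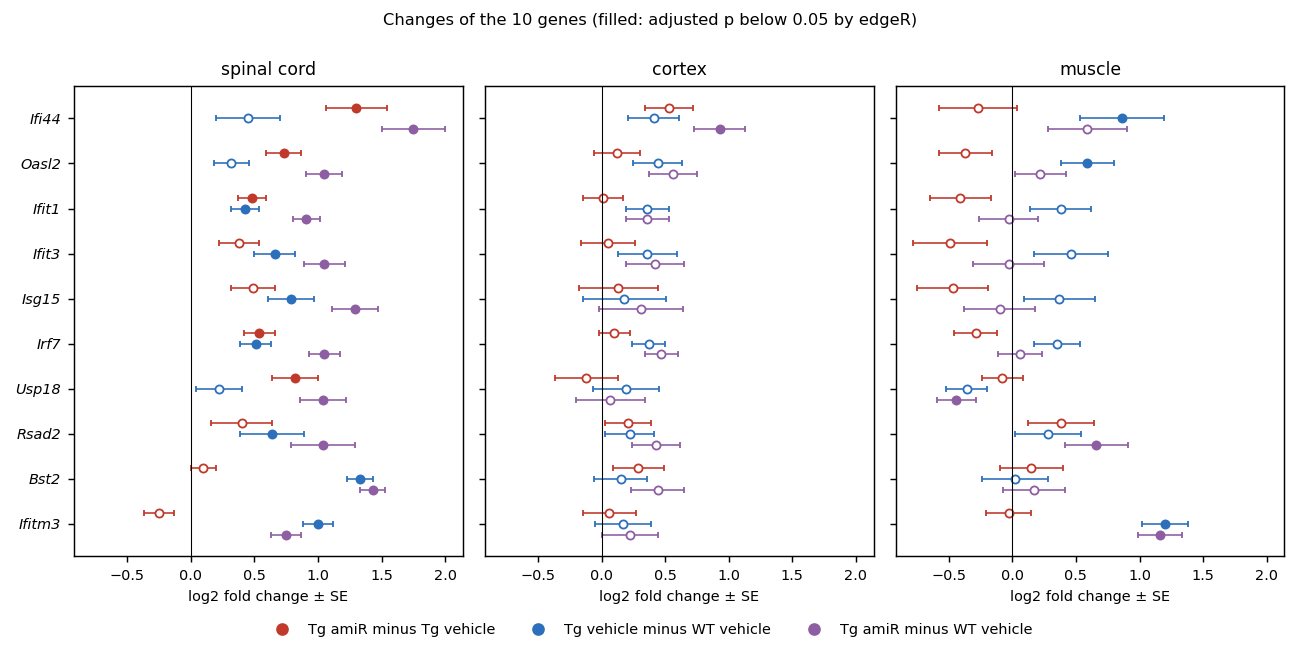
Log2 fold change (x axis) with SE bars of each of the 10 genes for treated minus vehicle-treated transgenic (red), vehicle-treated transgenic minus wild type (blue) and treated minus wild type (purple), in 3 tissues; filled points had an adjusted p below 0.05 by edgeR. In spinal cord all 10 purple points are filled, Ifi44 lies farthest right in red at 1.30 and Bst2 in blue at 1.33, and in cortex the purple point of Ifi44 at 0.93 alone is filled.

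The ligands themselves were at or near the detection limit. Of 21 interferon genes 12 had a count in any library, and none had enough counts to be tested. Ifnb1 had at most 1 count in any library. Ifng had 1 to 6 counts in treated, 0 to 2 in vehicle-treated transgenic and 0 to 3 in wild-type spinal cord libraries. A count of 0 allows up to 3 counts per library, so differences of this size were not detectable at this depth.

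Among genes for receptors and signal transduction, the kinase Jak1 rose by 0.29 on the log2 scale in treated against vehicle-treated transgenic cord (SE 0.06, adjusted p = 0.014), while the kinase Tyk2 fell by 0.21 (adjusted p = 0.0376) and the interferon-gamma receptor chain Ifngr1 fell by 0.24 (adjusted p = 0.0429), all by edgeR. Stat2 had 0.18 (adjusted p = 0.0755), Irf9 −0.01, Ifnar1 −0.09 and Ifnar2 −0.23 (adjusted p = 0.076). In vehicle-treated transgenic against wild-type cord 8 of 14 such genes (57.1%) rose and 1 fell, with a median of 0.15. Of all genes tested, 18.8% were called higher there. Socs3, a feedback inhibitor of cytokine receptors, rose by 2.79 (SE 0.26), Ifngr1 by 0.71 (SE 0.06), Ifnar2 by 0.69 (SE 0.08), Irf9 by 0.32 (SE 0.08) and Ifnar1 by 0.18 (SE 0.05), whereas Jak1 fell by 0.36 (SE 0.06). Stat2 had −0.06.

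Among 20 genes of nucleic acid sensing, 17 (85%) rose and 2 fell in vehicle-treated transgenic against wild-type cord. Of all genes tested, 18.8% were called higher in this comparison. None of the 20 was called for treatment, where the median was −0.03. The rises included the DNA sensor Ifi204 (3.26, SE 0.23), the transcription factors Irf8 (2.36, SE 0.20) and Irf5 (1.56, SE 0.14) and the inflammasome sensor Aim2 (1.68, SE 0.19). Irf8 and Irf5 are also strongly expressed by microglia, whose markers were higher in the same libraries. The part of microglia in these values was not tested.

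In a list of 51 other interferon-stimulated genes, 2 (3.92%) rose and none fell in treated against vehicle-treated transgenic cord, near the 2.92% of all genes called higher there, with a median of 0.16: Oasl1 (1.44, SE 0.25, adjusted p = 0.00726 by edgeR), a relative of Oasl2, and Rtp4 (0.39, SE 0.10, adjusted p = 0.0333 by edgeR). In vehicle-treated transgenic against wild-type cord 33 (64.7%) rose, where 18.8% of all genes were called higher, and 1 fell, with a median of 0.55. Among the rises were Ifi204, the secreted Lgals3bp (1.32, SE 0.10), the ISG15-activating enzyme Uba7 (1.05, SE 0.10) and the torsin family ATPase Tor3a (0.76, SE 0.08). The gene that fell was Cmpk2 (−0.43, SE 0.05, adjusted p = 1.12e-05 by edgeR), a nucleotide kinase, named after its value was seen. Treated against wild-type cord had 43 (84.3%) higher and 1 lower, with a median of 0.77, where 14.6% of all genes were called higher. The relatives of the 10 genes gave mixed values for treatment: Ifit3b had 0.30, Ifit1bl1 0.18, Ifitm2 −0.35 and Ifitm1 −0.76, and none of these passed.

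Of 17 interferon-gamma targets, 8 (47.1%) rose and none fell in treated against vehicle-treated transgenic cord, with a median of 0.60. Of all genes tested, 2.92% were called higher there. The 4 with the smallest adjusted p were the MHC class II genes Cd74 (1.41, SE 0.26), H2-Aa (1.45, SE 0.30) and H2-Ab1 (1.28, SE 0.28) and the guanylate-binding protein Gbp8 (2.86, SE 0.64). In vehicle-treated transgenic against wild-type cord 11 (64.7%) rose, against 18.8% of all genes, with a median of 0.85. Among them were the immunoproteasome subunit Psmb8 (1.31, SE 0.13) and the peptide transporter Tap1 (0.94, SE 0.13). Without mice older than 36 weeks, none of the 17 and 1 of the 51 other interferon-stimulated genes were called for treatment. Without the 4 libraries with conflicting labels 5 of the 17 and 6 of the 51 rose, and 1 of the 51 fell. Of all genes tested, 0.272% were called higher without the older mice and 1.73% without the conflicting libraries. Both alternatives for the lists were chosen after the data were seen.

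**Figure D4:**
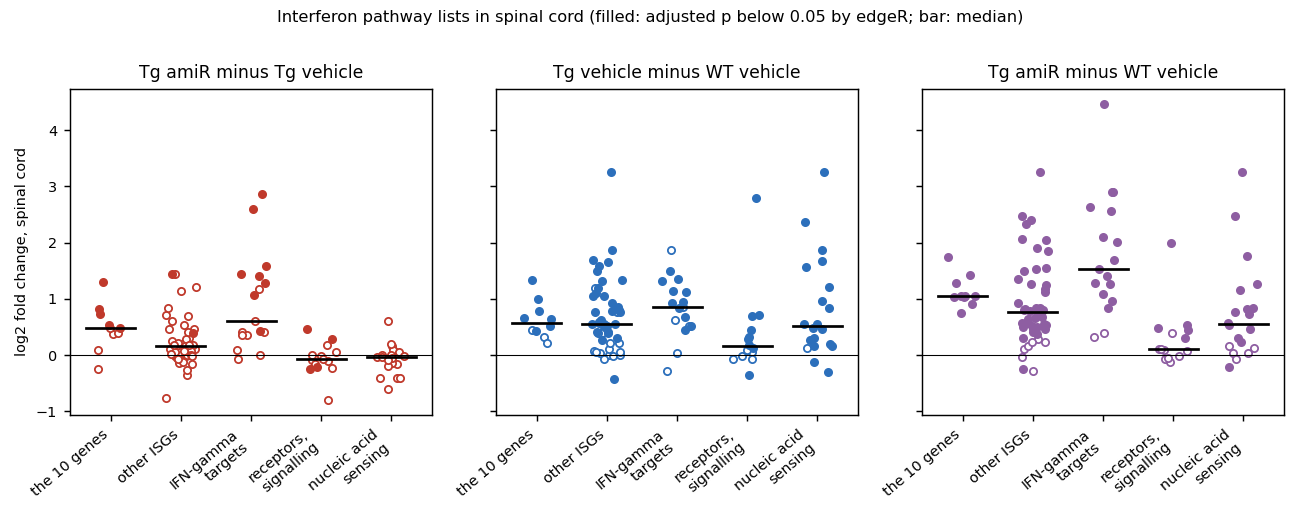
Log2 fold changes in spinal cord (y axis) of the 10 genes and of 4 lists of the interferon pathway, 1 point per gene, in 3 comparisons; filled points had an adjusted p below 0.05 by edgeR and bars are medians. For treatment the medians are 0.48 for the 10 genes, 0.16 for other interferon-stimulated genes and 0.60 for interferon-gamma targets, and for the transgene they are 0.58, 0.55 and 0.85.

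In cortex none of the 10 genes was called for treatment or for the transgene, in edgeR or in DESeq2. Over all genes tested, 0.00986% were called higher for treatment and 0.0148% for the transgene. Among the 10, Ifi44 had the smallest unadjusted p for treatment. For the transgene the smallest were those of Irf7 (unadjusted p = 0.0114) and Oasl2 (unadjusted p = 0.0333), by edgeR. The share of all genes with unadjusted p-values as small was not computed, so these values cannot be set against it. Ifi44 had 0.626, 0.857 and 1.18 CPM as lowest, median and highest value in treated cortex, against 0.485, 0.565 and 0.857 CPM in vehicle-treated transgenic cortex. The ranges overlapped, with a log2 fold change of 0.53 (SE 0.19, unadjusted p = 0.0125, adjusted p = 0.309 by edgeR). For the other 9 genes the treatment estimates lay between −0.12 for Usp18 and 0.29 for Bst2.

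For the transgene, all 10 estimates in cortex were above 0, from 0.15 for Bst2 to 0.44 for Oasl2, with an adjusted p of 0.995 by edgeR for each. Estimates above 0 were found for 10949 of all 20278 genes tested. The 10 genes also varied together between cortex libraries (median r 0.62 over pairs), so their signs are not separate observations. Irf7 had 1.18, 1.49 and 1.69 CPM as lowest, median and highest value in vehicle-treated transgenic cortex, against 1.01, 1.02, 1.06, 1.28 and 1.28 CPM in the 5 wild-type libraries, a log2 fold change of 0.37 (SE 0.13). In treated against wild-type cortex Ifi44 was called higher, where 0.666% of all genes tested were: the wild-type libraries had 0.652, 0.646, 0.5, 0.272 and 0.22 CPM, and the log2 fold change was 0.93 (SE 0.20, adjusted p = 0.0464 by edgeR). That call was lost in 6 of 8 alternatives, with adjusted p-values of up to 0.119, and when any of 13 single libraries was left out. Summed microglia markers were 471 to 595 CPM in treated, 455 to 647 CPM in vehicle-treated transgenic and 465 to 535 CPM in wild-type cortex. Of the 17 interferon-gamma targets, the chemokine gene Cxcl9, named after its value was seen, rose with treatment in cortex (log2 fold change 4.11, adjusted p = 0.00975 by edgeR). The estimates of all 17 were above 0, with a median of 0.48, where 9637 of all 20278 genes tested had an estimate above 0.

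In muscle, 3 of the 10 genes rose in vehicle-treated transgenic over wild-type mice, in a comparison in which 25.7% of all genes tested were called higher. Ifitm3 had 51.8, 44.1, 46.3, 47.6 and 43.6 CPM in the 5 vehicle-treated transgenic libraries, against 15.5, 17.3 and 29.2 CPM as lowest, median and highest value in wild-type muscle. The ranges did not overlap, as for 14.5% of all genes tested, and the log2 fold change was 1.20 (SE 0.18, adjusted p = 4.31e-05 by edgeR). Oasl2 had 4.03, 3.01, 2.35, 2.16 and 2.1 CPM in vehicle-treated transgenic muscle against 1.1, 1.49 and 3.42 CPM in wild-type muscle, with overlap and a log2 fold change of 0.59 (SE 0.21, adjusted p = 0.0277 by edgeR). Ifi44 had 1.06, 0.431, 0.55, 0.362 and 0.278 CPM in vehicle-treated transgenic muscle against 0.157, 0.216 and 0.801 CPM in wild-type muscle, also with overlap, and a log2 fold change of 0.86 (SE 0.33, adjusted p = 0.0369 by edgeR). Oasl2 and Ifi44 lost their calls when sex was left out of the model (adjusted p = 0.23 and 0.257 by edgeR), and 1 of the 10 genes was called without vehicle-treated transgenic replicate 1 or 3 or without wild-type replicate 6. Bst2 had 0.02 (SE 0.26) and Usp18 −0.36 (adjusted p = 0.0682 by edgeR).

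The wild-type muscle libraries were spread unevenly. Wild-type female replicates 1 and 2 had 29 and 29.2 CPM of Ifitm3, 4.61 and 3.77 CPM of Bst2 and 3.34 and 3.29 CPM of Rsad2. Female replicate 3 and the 3 males together had 15.5 to 17.7 CPM of Ifitm3, 1.65 to 1.93 CPM of Bst2 and 0.77 to 1.23 CPM of Rsad2. In wild-type spinal cord, Ifi44 had 0.738 to 0.846 CPM in the 3 females and 0.377 to 0.458 CPM in the 3 males. The sexes overlapped in vehicle-treated transgenic cord, with 0.594 to 0.949 CPM in females and 0.84 to 0.993 CPM in males. They also overlapped in treated cord, with 1.46 to 1.82 CPM in females and 1.52 to 2.89 CPM in males.

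None of the 10 genes was called between treated and vehicle-treated transgenic muscle, where 0.767% of all genes tested were called higher, and no gene had an unadjusted p below 0.05. DESeq2 called none either. Of the 10 estimates 8 were below 0, from −0.49 for Ifit3 to −0.03 for Ifitm3, and Bst2 and Rsad2 had 0.15 and 0.38. Estimates above 0 were found for 8580 of all 16949 genes tested. Treated against wild-type muscle had Ifitm3 higher at 1.16 (SE 0.17, adjusted p = 7.4e-05), Rsad2 higher at 0.66 (SE 0.25, adjusted p = 0.0465) and Usp18 lower at −0.44 (SE 0.15, adjusted p = 0.0313), all by edgeR, where 17.5% of all genes tested were called higher and 17.7% lower. Rsad2 ranged from 1.13 to 5.58 CPM in treated and from 0.77 to 3.34 CPM in wild-type muscle, so these groups overlapped. Ifitm3 alone had ranges without overlap here, against 7.52% of all genes tested. Usp18 had 0.545 to 0.822 CPM in treated and 0.693 to 1.05 CPM in wild-type muscle, again with overlap. Without wild-type replicate 4 or treated replicate 4, 1 of the 10 genes was called. Among 17 fits that left out a single library, the call of Rsad2 held in 6 and that of Usp18 in 12, and among 8 other alternatives that of Rsad2 held in 5 and that of Usp18 in 3.

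Several lists of cell type markers differed between vehicle-treated transgenic and wild-type muscle, where 25.7% of all genes tested were called higher and 24.8% lower. Of 10 endothelial markers 3 fell and none rose, and of 5 neutrophil markers tested 2 rose and none fell. All 10 macrophage markers rose in vehicle-treated transgenic over wild-type muscle, with summed values of 39.3 to 67.9 CPM in treated, 72.3 to 94.5 CPM in vehicle-treated transgenic and 13.5 to 44.6 CPM in wild-type muscle. Of the 16 genes listed as microglia markers, which do not mark microglia in muscle, 13 rose in the same comparison. Their summed values were 31.9 to 77.2 CPM in treated, 69 to 96.1 CPM in vehicle-treated transgenic and 25.4 to 60.4 CPM in wild-type muscle. They are not counted as a cell type apart from macrophages. All 4 T cell markers that could be tested rose. Of 10 muscle fibre markers 8 fell and 1 rose, with summed values of 90900 to 105000 CPM in treated, 72500 to 93400 CPM in vehicle-treated transgenic and 117000 to 147000 CPM in wild-type muscle. The part of these cells in the values of the 10 genes was not tested. Of 48 other interferon-stimulated genes tested in muscle, 11 rose for the transgene, with a median of 0.17. This is a smaller share than the 25.7% of all genes called higher in that comparison. None of the 48 was called for treatment. With library totals in place of TMM, the median of all genes in the transgene comparison moved by 0.34 on the log2 scale. Then 7 of the 10 genes were called, and 10573 of all 16949 genes, against 8552 with TMM.

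**Figure D5:**
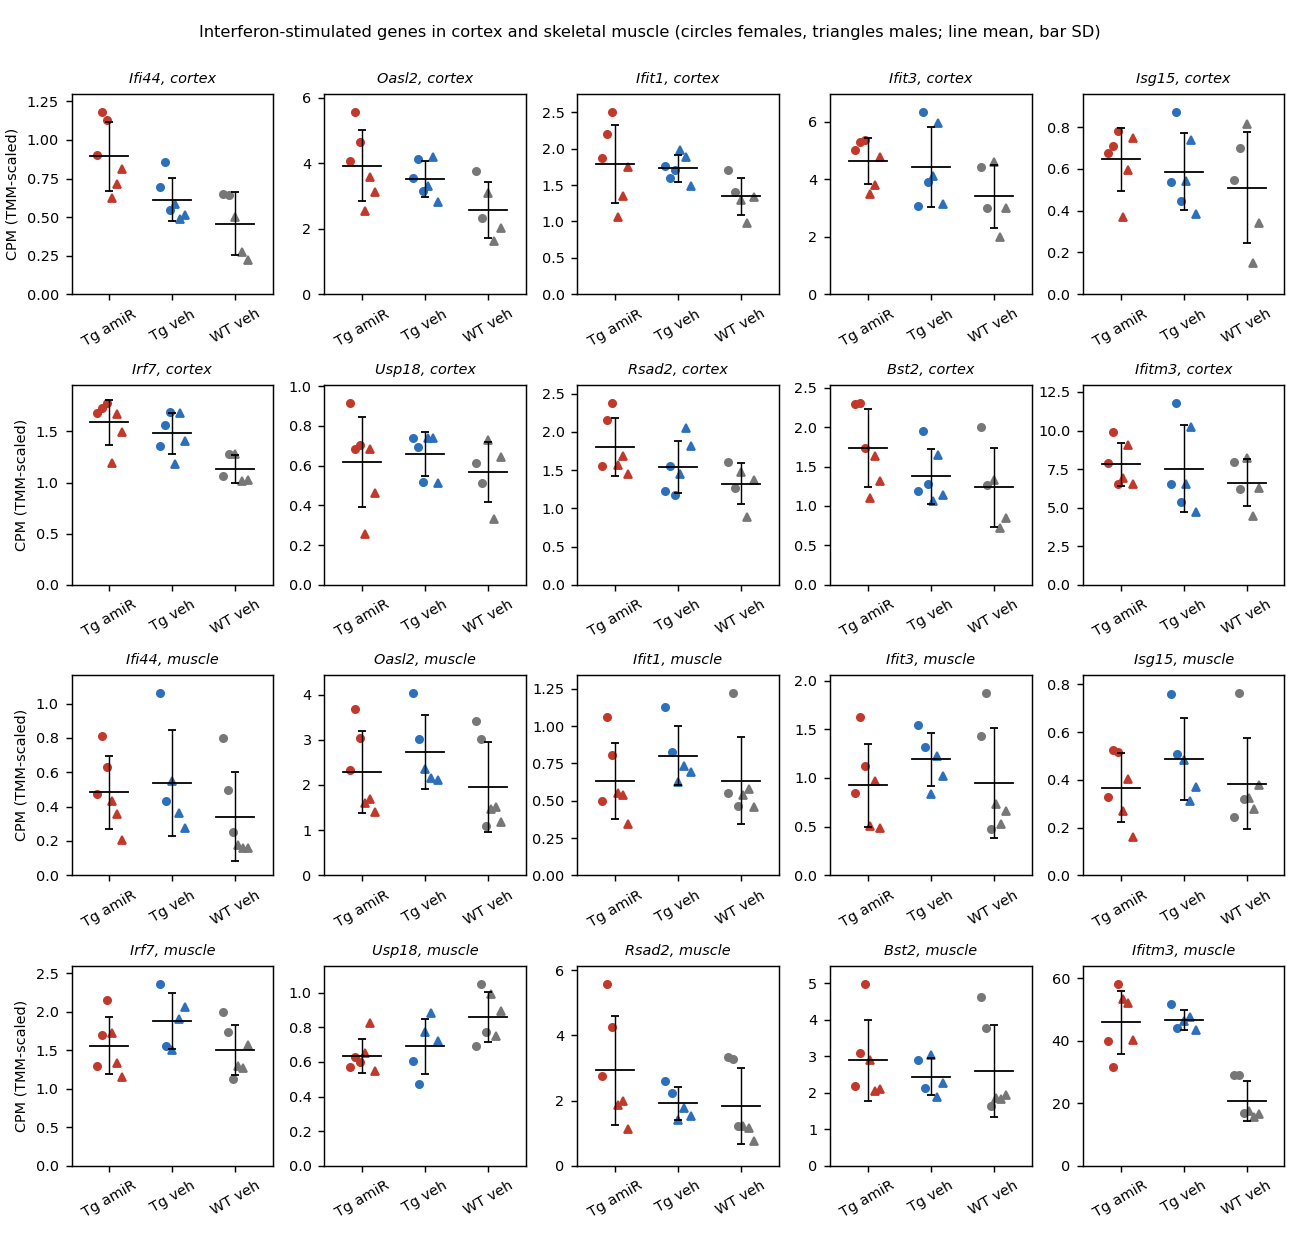
TMM-scaled CPM of the 10 genes in every cortex library (upper 2 rows) and muscle library (lower 2 rows), with treated transgenic (Tg amiR) left, vehicle-treated transgenic (Tg veh) in the middle and wild type (WT veh) right; circles are females, triangles males, lines means and bars SD. The arms overlap in every cortex panel, and in muscle the transgenic arms of Ifitm3, at 31.7 to 58.2 CPM, lie above the wild-type libraries at 15.5 to 29.2 CPM.

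The differences between tissues were tested in 1 model of 22316 genes over all libraries. The labels do not tie libraries of different tissues to animals, so the model treated all libraries as separate. Tissues of the same mouse, if any, were not accounted for. For treatment, the change in spinal cord exceeded that in muscle for Ifi44 by 1.53 (SE 0.36, adjusted p = 0.0135), for Oasl2 by 1.08 (SE 0.26, adjusted p = 0.0155) and for Irf7 by 0.81 (SE 0.20, adjusted p = 0.0162), all on the log2 scale and by edgeR, with 1.3% of genes called in this direction. Ifit1 at 0.86 had an adjusted p of 0.0512. None of the 3 calls was left with the replicate block (adjusted p of up to 0.175 by edgeR), and Irf7 alone was called without sex in the model. Between spinal cord and cortex no gene of the 10 was called for treatment, nor was any of the 22316 genes in the direction of a higher change in spinal cord, which is 0% called. Usp18 came nearest there, with a difference of 0.93 (SE 0.28, unadjusted p = 0.00177, adjusted p = 0.164 by edgeR). Ifi44 had 0.76, Oasl2 0.61 and Irf7 0.44, each with an unadjusted p below 0.05 but adjusted p-values of 0.406 to 0.465 by edgeR. The rise in spinal cord was therefore not shown to differ from the change in cortex. Between cortex and muscle none of the 10 was called for treatment either, where 1.26% of genes were called higher.

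For the transgene, Bst2 changed more in spinal cord than in cortex by 1.16 (SE 0.29, adjusted p = 0.00532; 5.45% of genes called) and more than in muscle by 1.28 (SE 0.28, adjusted p = 0.000385; 14.5% of genes called), by edgeR. Ifitm3 changed more in spinal cord than in cortex by 0.81 (SE 0.26, adjusted p = 0.0374) by edgeR, and its change in cortex minus that in muscle was −1.04 (SE 0.26, adjusted p = 0.00219 by edgeR; 15% of genes called lower). Between spinal cord and muscle Ifitm3 differed by −0.23 (SE 0.26, adjusted p = 0.553 by edgeR). Both calls of spinal cord over cortex were lost with the replicate block (Bst2 0.97, adjusted p = 0.0592, and Ifitm3 0.58, adjusted p = 0.165, by edgeR). That of Ifitm3 held in 3 of 7 alternatives and in 22 of 35 fits that left out a single library. For the other 8 genes, no difference between tissues in the transgene change was called.

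To describe how the 10 genes varied between libraries of the same arm, arm means were removed. The median Pearson r over the 45 gene pairs was 0.62 in cortex (17 libraries), 0.62 in muscle (17 libraries) and 0.34 in spinal cord (18 libraries), as a description over libraries that share their depth and sex structure. Oasl2 was in the most alike pair of each tissue, with Rsad2 in muscle (0.95), Bst2 in cortex (0.90) and Ifi44 in spinal cord (0.78). Ifitm3 and Oasl2 had the lowest value in spinal cord (−0.41), and Usp18 and Oasl2 in muscle (−0.23). Outside the lists, the genes most like the mean of the 10 in muscle were the interferon-inducible Gbp5, Ifi47 and Gbp7 (0.92 each) and Sp110 and Cd274 (0.90 each), of 11456 genes compared. In cortex they were Casp12 (0.91), Serpinb9 (0.88), Il13ra1 and Pard6g (0.87 each) and Ston1 (0.86), of 13422, and in spinal cord Mios and Mest (0.78 each), Camk4 and Zxdc (0.76 each) and Dph5 (0.73), of 13671. How high the largest r of so many genes would be by chance over so few libraries was not tested. The names, above all those of spinal cord, are therefore a description only.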

How the data were processed

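Poly(A) RNA of 52 mouse tissue libraries had been sequenced. The authors deposited expected counts per gene, and per the submitters' processing notes the tools were STAR 2.7.2d, RSEM 1.3.2, bcl2fastq 2.20 and DESeq2 1.34.0, with the builds GRCm38 and GRCh38, and no annotation release is named. Estimated counts that were not whole (6.98% of the deposited values) were rounded to whole numbers. Lines outside mouse genes (spike-ins, vector and human PFN1) made up at most 0.167% of a library and stayed out of library sizes and tests.

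Each tissue was fitted separately in R 4.3.3 with edgeR 4.0.16 (TMM, filterByExpr, arm and sex, quasi-likelihood F test), which left 16949 genes to test in muscle, 20278 in cortex and 20307 in spinal cord. A joint model of 22316 genes tested differences between tissues. P-values were adjusted by Benjamini-Hochberg over all genes tested, with a threshold of 0.05. The scripts were tested on simulated data. Alternatives were other scalings, no low-count filter, DESeq2 1.42.0, models without sex, with RIN or with a replicate block, and fits without doubtful or single libraries.

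The 10 genes and all lists were chosen with earlier results of these data known. Named were the 10 genes, their near relatives, at most 4 called genes per interferon list and comparison by smallest adjusted p, fixed pathway genes (1 is not reported here), Atxn2, WPRE, and the 5 genes per tissue most like the mean of the 10 (Pearson r of arm-centred log2 CPM, mean of at least 1 CPM). The floor of 3 counts covers counting error only, while each SE was derived from the edgeR test and includes the spread between libraries.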

Additional observations from a re-analysis of the deposited data

Results flagged for a closer look

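In 90 groups of libraries, 5 held a library far from the others of its group, and chance flags about 1 in 20 groups. Oasl2 had 6.29 CPM in wild-type spinal cord replicate 3, against 4.07 to 4.64 CPM in the other 5 libraries. Rsad2 had 4.12 CPM in vehicle-treated transgenic spinal cord replicate 5, against 1.24 to 2.26 CPM. In wild-type muscle replicate 2, Ifit1 had 1.22 CPM against 0.456 to 0.58 CPM, and Isg15 had 0.762 CPM against 0.246 to 0.377 CPM. Bst2 had 4.98 CPM in treated muscle replicate 3, against 2.05 to 3.1 CPM.

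Of 60 differences between tissues, 7 passed the interaction test (edgeR, adjusted over 22316 genes). For treatment, the change in spinal cord minus that in muscle was 1.53 for Ifi44, 1.08 for Oasl2 and 0.81 for Irf7 on the log2 scale. For the transgene, the change in spinal cord minus that in cortex was 1.16 for Bst2 and 0.81 for Ifitm3, the change in spinal cord minus that in muscle was 1.28 for Bst2, and the change in cortex minus that in muscle was −1.04 for Ifitm3.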

How the results depend on the processing

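No called gene of the 10 changed sign under any alternative, and treated against wild-type spinal cord kept 10 calls in each. For treatment in spinal cord the 5 calls became 1 without mice older than 36 weeks, 2 without the 4 libraries with conflicting labels and 0 with arms by library name, and 2 to 6 with single libraries left out. For the transgene in spinal cord 7 became 5 to 8, and 6 to 9 with single libraries left out. In treated against wild-type cortex 1 became 2 with DESeq2 and 0 with library totals, no filter, no sex term, RIN or no older mice, and 0 to 1 with single libraries left out. For the transgene in muscle 3 became 7 with library totals and 1 without sex or with RIN, and 1 to 4 with single libraries left out. In treated against wild-type muscle 3 became 1 with RIN or without older mice, and 1 to 4 with single libraries left out. For the transgene in spinal cord minus cortex 2 became 1 without the filter, without older mice or without the conflicting libraries, and 1 to 2 with single libraries left out. For treatment in spinal cord minus muscle 3 became 5 with library totals and 1 without sex, and 3 to 4 with single libraries left out, and for the transgene there 1 became 1 to 2. The cause was not tested.

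Same-numbered libraries did not deviate together throughout (muscle r between −0.29 and 0.64, cortex r between −0.47 and 0.69, spinal cord r between −0.19 and 0.4), so the numbers were not taken as pairs. With the replicate block the calls were 5 for treatment in spinal cord, 0 in treated against wild-type cortex, 1 for the transgene in muscle, 0 for the transgene in spinal cord minus cortex and 0 for treatment in spinal cord minus muscle. Under the block Ifit1 had 0 for treatment in cortex, Ifi44 0.17 and Ifitm3 0.03 for treatment in muscle, Bst2 −0.16 for the transgene in muscle and Ifit3 0.01 in treated against wild-type muscle, each with the opposite sign or no sign and none called.

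Other uncalled estimates near 0 also changed sign. For treatment in cortex Ifit1 had −0.02 with library totals and 0 without the filter, and Usp18 had 0.02 without older mice. In muscle Bst2 had −0.13 for treatment without older mice, and −0.09 without sex and −0.13 with RIN for the transgene. In treated against wild-type muscle library totals gave Ifit1 0.15, Ifit3 0.14 and Isg15 0.10, RIN gave Oasl2 −0.03, Irf7 −0.20 and Bst2 −0.05, and Irf7 had −0.06 without older mice. With single libraries left out, signs changed for Ifit1 (−0.08 to 0.11), Ifit3 (−0.06 to 0.19), Ifitm3 (−0.05 to 0.23) and Usp18 (−0.24 to 0.05) for treatment in cortex, Isg15 (−0.03 to 0.50) for the transgene in cortex, Usp18 (−0.05 to 0.25) in treated against wild-type cortex, Ifitm3 (−0.11 to 0.07) for treatment in muscle, Bst2 (−0.13 to 0.17) for the transgene in muscle, and Ifit3 (−0.20 to 0.19), Ifit1 (−0.16 to 0.21), Isg15 (−0.24 to 0.16) and Irf7 (−0.04 to 0.14) in treated against wild-type muscle.

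Over all genes, the 1037 calls for treatment in spinal cord became 558 with library totals, 2198 with DESeq2, 497 without the filter, 555 with the replicate block, 359 with RIN, 96 without older mice and 0 by library name. The 4 in cortex became 0 to 321, the 228 in treated against wild-type cortex 9 to 1330, the 190 for treatment in muscle 1 to 969, and the 5 for the transgene in cortex 10 with DESeq2. For treatment, the 15 calls in spinal cord minus cortex became 6 to 8 where they changed by over 1.5 times, the 678 in spinal cord minus muscle 139 to 385, and the 567 in cortex minus muscle 134 to 984. These all-gene ranges do not include single libraries left out. Arms of 5 or 6 libraries limit these results, and at these depths interferon ligands at or near 0 counts could not be compared.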
